A study of Mus musculus with 6 samples.

Results

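The nuclear-encoded subunits of oxidative phosphorylation were taken from the count table by gene symbol, as the symbols that begin with Nduf and a subunit letter, Sdha to Sdhd, Uqcr, Cox4 to Cox8 or Atp5, without pseudogene symbols. This gave 86 of 25239 genes, of which 37 belong to complex I, 4 to complex II, 8 to complex III, 20 to complex IV and 17 to complex V. Ndufa4 and its relative Ndufa4l2 were put in complex IV, where the Ndufa4 protein is now placed. Subunits encoded by mitochondrial DNA are not analysed here.

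Oxidative phosphorylation is the work of 5 protein complexes in the inner mitochondrial membrane. Complexes I and II take electrons from NADH and succinate, complexes III and IV pass them on to oxygen, and complex V uses the resulting proton gradient to make ATP. Most subunits are encoded in the nucleus, made in the cytosol and imported, and their genes are usually expressed together. Oocytes carry many mitochondria and oxidise pyruvate, while the somatic cells around them lean more on glycolysis.

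Their transcripts were examined by RNA sequencing of C57BL/6 mouse ovaries at E18.5, late in embryonic life, in 3 libraries with the genotype WT and 3 labelled with the genotype Hnrnpl-null and called so below. Hnrnpl encodes an RNA-binding protein that regulates splicing. Titles of the Hnrnpl-null libraries carry the abbreviation CKO, and the labels name neither a Cre driver nor the cells in which the gene was removed, so what limits this group as a model is not given. The deposited table is named after Stra8, a gene that germ cells switch on before meiosis, without a word on its use. The deposited cell type is oocyte and the tissue ovary, which was dissociated with Liberase and DNase, and no sort is named. No label ties the libraries to separate animals, so p-values only set a group difference against the scatter of these 6 libraries within their groups. That scatter may be technical. Values of single libraries are given in the order of replicates 1, 2 and 3.

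After the filter on low counts 79 members were tested among 14849 genes, and these are not all members. The 7 left out were Cox6a2, Cox7b2, Cox8b and Cox8c, which are isoforms known from muscle or testis, and Ndufa11b, Ndufb4c and Ndufs5. Ndufs5, a subunit found in most tissues, was listed at 0 counts in all 6 libraries, and its exons overlap those of the annotated pseudogene Ndufs5-ps, which was itself at 0 to 0.253 counts per 1000000 counts of the scaled library (CPM).

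The libraries differed in depth and make-up. Totals ran from 8949781 to 22401419 counts, but Rn45s, the precursor of ribosomal RNA, took 83.0% of WT replicate 1 and 86.1% of Hnrnpl-null replicate 3 and no more than 36.0% elsewhere. The members held 7732 counts in Hnrnpl-null replicate 3, 15138 in WT replicate 1 and 28119 to 52405 in the others, which was 0.396% to 0.503% of the counts outside Rn45s. Counts were mostly even (93.4% to 98.4% of those from 1 to 20), as if each pair of reads had been counted at both ends. Hnrnpl itself was at 172, 169 and 145 CPM in WT and 166, 173 and 213 CPM in Hnrnpl-null, with an edgeR adjusted p of 0.50, so its count over all exons and cells does not check the labels.

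Markers of several ovarian cell types were present, and some differed between the groups. All 10 germ cell markers fell in the Hnrnpl-null libraries, with summed levels of 409 to 478 CPM in WT and 171 to 209 CPM in Hnrnpl-null. The number called was 6 without WT replicate 3, 7 without WT replicate 2 or Hnrnpl-null replicate 2, and 8 to 10 with another library left out. Of 12 leukocyte markers 10 rose, with sums of 114 to 131 CPM in WT and 1073 to 1216 CPM in Hnrnpl-null. Of 8 stromal markers 4 rose, the collagen genes Col1a1, Col1a2 and Col3a1 and the proteoglycan gene Dcn, with sums of 6020 to 6522 and 8962 to 10354 CPM. This count was 4 without Hnrnpl-null replicate 3, 2 without WT replicate 1, 0 without Hnrnpl-null replicate 2 and 1 without any one of the others. It was 0 with library totals alone or with scaling to 25 general genes outside the mitochondrion. The stromal sums were mostly collagen: Col1a1, Col1a2 and Col3a1 had means of 2792, 1230 and 1972 CPM in WT, where the mean sum was 6354 CPM. The 4 uncalled stromal markers, Lum, Pdgfra, Nr2f2 and Tcf21, had log2 fold changes of 0.38, 0.15, -0.04 and -0.16. Of the other lists, 1 of 10 pregranulosa markers (Kitl) rose, with sums of 829 to 895 CPM in WT and 857 to 961 CPM in Hnrnpl-null. The 10 pericyte and smooth muscle, 6 endothelial and 5 tested erythroid markers gave no call in the main edgeR fit, with 4, 3 and 2 at an unadjusted p below 0.05. Sums over these lists, with the 3 untested erythroid markers included, were 238 to 300, 143 to 177 and 21.2 to 36.6 CPM in WT and 260 to 297, 150 to 161 and 30.6 to 74.4 CPM in Hnrnpl-null. Median log2 fold changes of the tested markers were 0.02, -0.50 and 0.82 in the same order. The level endothelial sums hide this: 5 of the 6 markers had fitted values below 0. Kdr, the most abundant of the 6, was the exception at 0.35, with group means of 80.8 (WT) and 103 CPM (Hnrnpl-null). Of the markers in these lists, DESeq2 called Myh11 and Cdh5 lower and Kdr and Slc4a1 higher. Limma-voom called the same 4, and also Tagln and Alas2 higher. Of 8 striated muscle and brown fat markers 6 were too low to test, with sums over all 8 of 5.27 to 7.03 CPM in WT and 2.44 to 6.25 CPM in Hnrnpl-null, and no marker in these lists was at 0 in all 6 libraries. The part of these cell types in the values below was not tested, and in tissue RNA fewer cells of a type and less RNA per cell cannot be told apart.

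None of the 79 tested subunit genes passed the edgeR quasi-likelihood test at an adjusted p below 0.05, the threshold at which 4.46% of all tested genes were called, 2.67% higher and 1.79% lower in the Hnrnpl-null libraries. At an unadjusted p below 0.05 in either direction there were 8 members (10.1%), beside 2746 of the 14849 tested genes, which is a larger share. By direction, 6 of the 79 members were higher and 2 lower. Of all tested genes 9.97% were higher and 8.53% lower at that threshold, in each direction a larger share than that of the members. Other tools called a few members. DESeq2, which called 7.31% of all genes, called Atp5a1 higher and Ndufa12 lower, and limma-voom, which called 8.57%, called Atp5a1 and Atp5g1 higher and Ndufb7 and Ndufa12 lower. Ndufa12 was also called lower by edgeR without Hnrnpl-null replicate 3 (5.42% of all genes), without both libraries rich in Rn45s (5.32%), with counts halved (5.98%), with no filter on low counts (5.48%) and with the scaling to general genes (9.97%). The difference between the members' shares and those of all genes was not tested.

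The typical subunit transcript lay close to its WT level. The median log2 fold change of the 79 was 0.10, with quartiles at -0.04 and 0.26, beside a median of -0.01 over all tested genes. With the scaling to general genes the members' median was -0.21 and that of all tested genes -0.31, so the sign of the members' median, and of most small positive values below, flips with that scaling. Fitted values were above 0 for 55 members and below 0 for 24, beside 7246 and 7603 of all tested genes. Among all tested genes of up to 763 exonic bases, the members' median length, 310 were above 0 and 204 below, with a median log2 fold change of 0.13. Groups did not overlap for 10 members, all with Hnrnpl-null higher (12.7%, beside 12.4% of all tested genes in that direction). With Hnrnpl-null lower this held for 0 members, beside 13.2% of all tested genes. Short genes were separate less often: of 514 tested genes of up to 763 bases, 48 were separate with Hnrnpl-null higher and 34 with it lower. At an unadjusted edgeR p below 0.05 were 13.2% of these short genes. Of the 40 members of up to that length, 3 had separate groups. The precision allows a bound: for 57 of the 79 the 95% interval of the ratio lay within 2-fold of WT in either direction (72.2%, beside 61.8% of all tested genes), and for 29 it lay within 1.5-fold (36.7%, beside 30.5%). For the other 22 the interval reached beyond 2-fold, so a difference of that size could not be bounded at this depth.

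**Figure D1:**
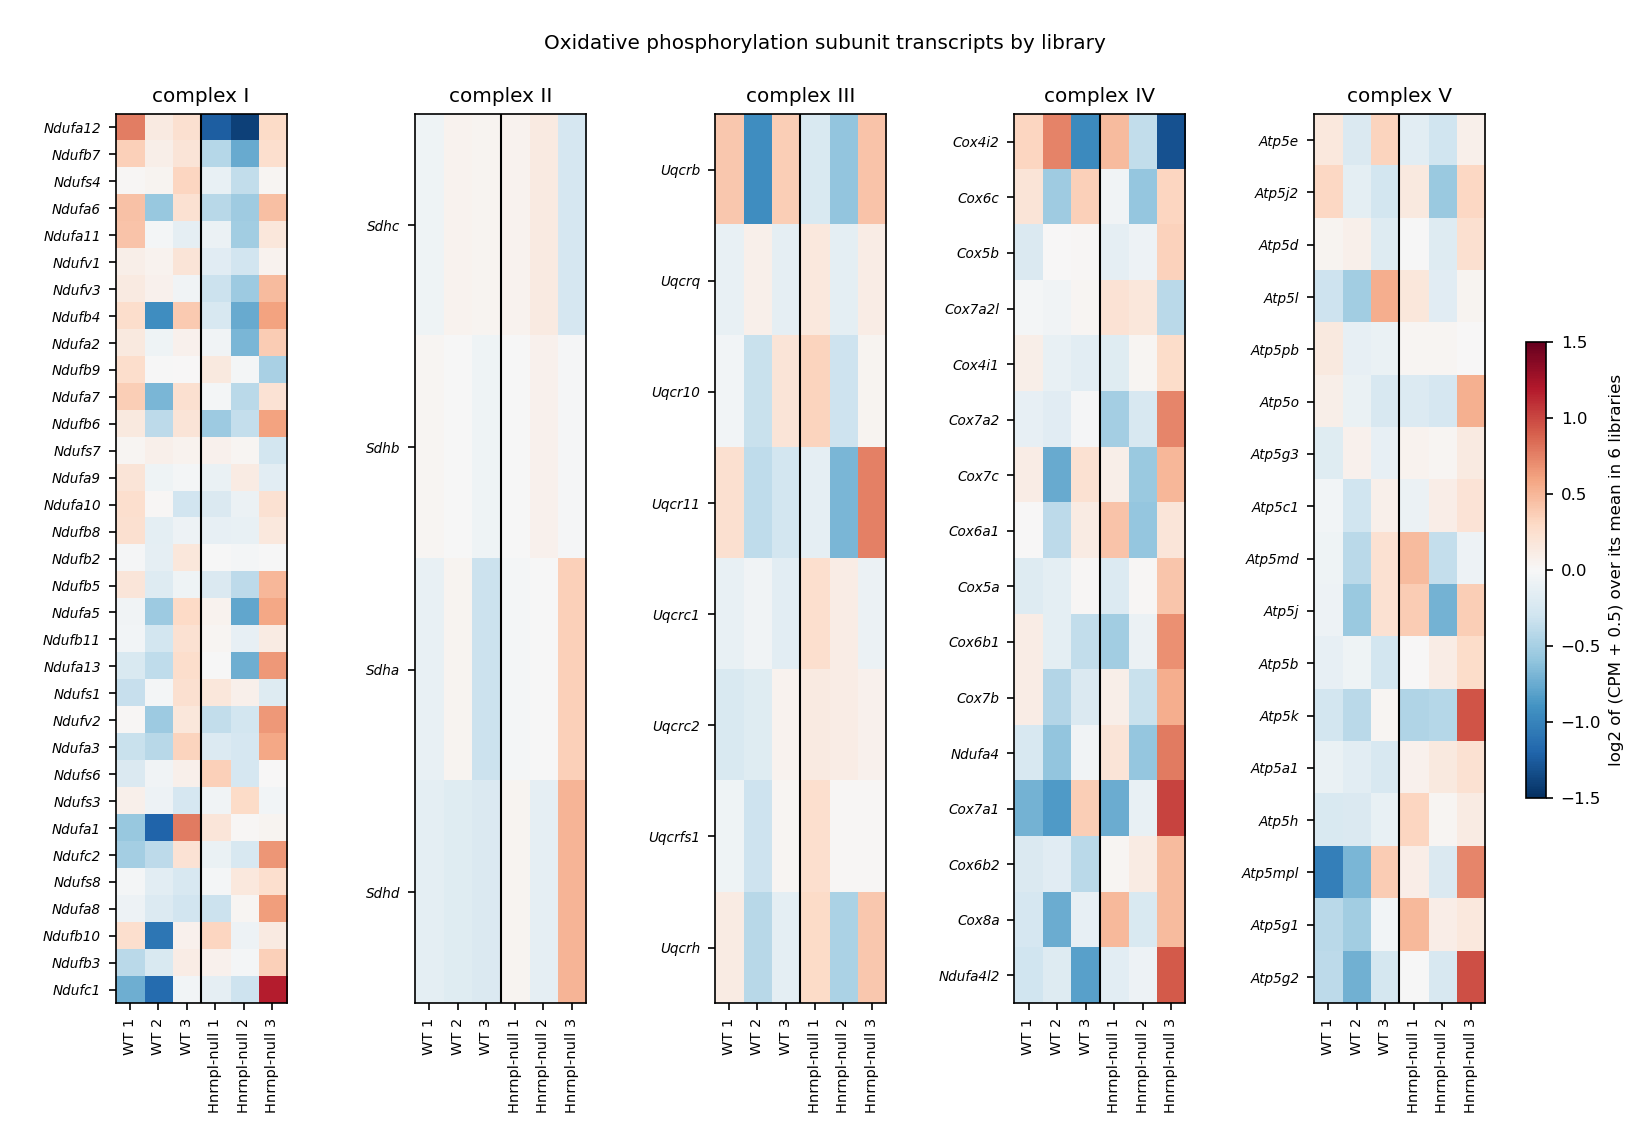
Levels of 78 of the 79 tested subunit genes (rows, by complex and in order of fitted fold change) in each library (columns), as log2 of CPM + 0.5 over the gene's mean in the 6 libraries, with the WT libraries left of the black line. Hnrnpl-null replicate 3 is red across most genes and WT replicate 2 mostly blue. On another scale than the one drawn, log2 CPM from edgeR centred on each gene's mean, all 79 members averaged 0.34 and -0.25 in these libraries.

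On the CPM scale 1 library stood apart. Centred on each gene's mean, the members' mean log2 CPM was 0.01, -0.25 and 0.06 in WT and 0.02, -0.19 and 0.34 in Hnrnpl-null. Hnrnpl-null replicate 3, the library richest in Rn45s, was thus the highest of the 6 on this scale, and WT replicate 2 the lowest. The order depends on the scaling. As a share of the counts outside Rn45s, the members were at 0.396%, 0.471% and 0.491% in WT and 0.503%, 0.477% and 0.44% in Hnrnpl-null. By that share Hnrnpl-null replicate 3 was the lowest of its group and WT replicate 1 the lowest of all. Subunit transcripts are short, with a median exonic length of 763 bases against 3117 over all tested genes. Among the 40 members of up to 763 bases, Hnrnpl-null replicate 3 exceeded the mean of its 2 fellow libraries by a median of 0.60 on the log2 scale and was above both for 28. Among the 39 longer members the median was 0.28, with 24 above both. All tested genes showed a median of 0.29 at up to that length and -0.08 above it. Without this library the members' median log2 fold change was 0.02, and with the trend along exonic length removed it was 0.01.

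The 5 genes outside the set whose levels over the 6 libraries were most like the members' mean profile were Adrm1, Timp1, Cfdp1, Rbm25 and Snai1. Their root mean square distance from that profile ran from 0.045 to 0.060 on the log2 scale, against a median of 0.265 for the members themselves and 0.359 for all tested genes.

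**Figure D2:**
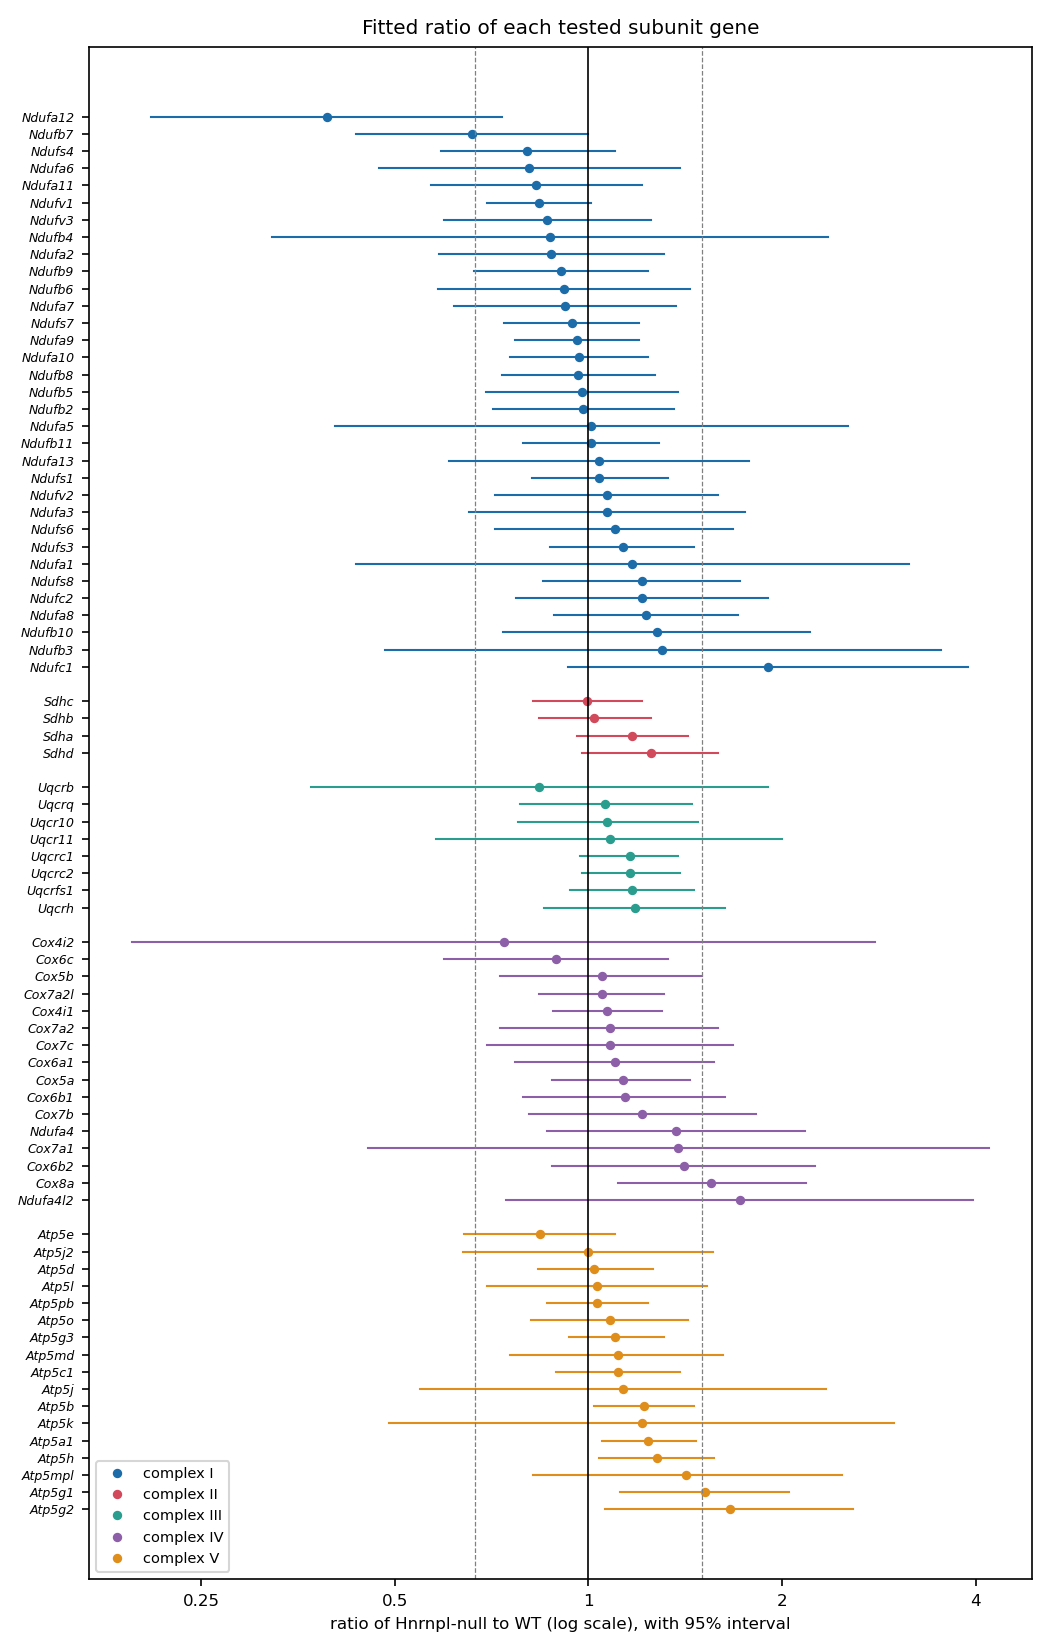
Fitted ratio of Hnrnpl-null to WT (log scale) for 78 of the 79 tested subunit genes, each with its 95% interval, coloured by complex; the dashed lines stand at 1.5-fold in either direction. Most intervals cross 1, the complex I points straddle it, and those furthest from it are Ndufa12 at 0.392 and Ndufc1 at 1.90.

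Complex I takes electrons from NADH and is the largest of the chain. Its 34 tested genes had a median log2 fold change of -0.03, with 16 fitted above 0 and 18 below. Summed levels, which for each complex include the members too low to test, were 510, 432 and 503 CPM in WT and 445, 429 and 552 CPM in Hnrnpl-null, so the groups overlapped. The 7 nuclear core subunits, which carry the flavin and the iron-sulfur clusters or shape the quinone site, had a median of 0.06 and the 27 other tested subunits one of -0.05. The core sums were 200, 187 and 209 CPM in WT and 191, 195 and 206 CPM in Hnrnpl-null. Per length, Ndufv1 was at 29.1 CPM per kilobase of exonic length (RPKM), and Ndufb3 the lowest of those tested at 1.15 RPKM.

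Ndufv1, the core subunit that binds NADH and the flavin, was at 49.8, 48.7 and 53.5 CPM in WT and 41.6, 38.4 and 48.7 CPM in Hnrnpl-null, with a log2 difference of -0.25 ± 0.12 (SE) and an edgeR adjusted p of 0.30. Its groups met at 48.7 CPM, and with the scaling to general genes it was called lower, with an edgeR adjusted p of 0.026.

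Ndufa12, an accessory subunit of the arm that binds NADH, had the lowest fitted value of all members. It lies on chromosome 10, from 94199035 to 94221438 on the plus strand of mm10. It was at 12.4, 7.79 and 8.41 CPM in WT and 2.7, 2.36 and 8.75 CPM in Hnrnpl-null. Hnrnpl-null replicates 1 and 2 lay below every WT library, while replicate 3, with 28 counts, lay among them. The log2 fold change was -1.35 ± 0.42 (SE), a ratio of 0.392 with a 95% interval of 0.209 to 0.734 and an edgeR adjusted p of 0.092. Without Hnrnpl-null replicate 3 it was called lower, at -1.89 with an edgeR adjusted p of 0.0018. Over 21 alternative fits its adjusted p ran from 0.0017 to 0.34, and 7 of them called it.

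Ndufb7, an accessory subunit of the membrane arm (chromosome 8, 83566758 to 83571623, plus strand of mm10), was next lowest. It was at 10.8, 8.87 and 9.58 CPM in WT and 6.07, 4.72 and 10 CPM in Hnrnpl-null, with replicate 3 again among the WT values. Its log2 fold change was -0.60 ± 0.28 (SE) with an edgeR adjusted p of 0.27, which was 0.044 with limma-voom and 0.054 in edgeR without Hnrnpl-null replicate 3. At the other end, Ndufc1, a small membrane subunit, was at 2.63, 1.82 and 4.55 CPM in WT and 4.22, 3.66 and 11.2 CPM in Hnrnpl-null, with overlapping groups, a log2 fold change of 0.93 and an edgeR adjusted p of 0.33. Ndufs8, a core iron-sulfur subunit, was the only complex I gene whose groups did not overlap. It was at 7.11, 6.47 and 6.06 CPM in WT and 7.12, 8.15 and 8.75 CPM in Hnrnpl-null (edgeR adjusted p = 0.59).

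**Figure D3:**
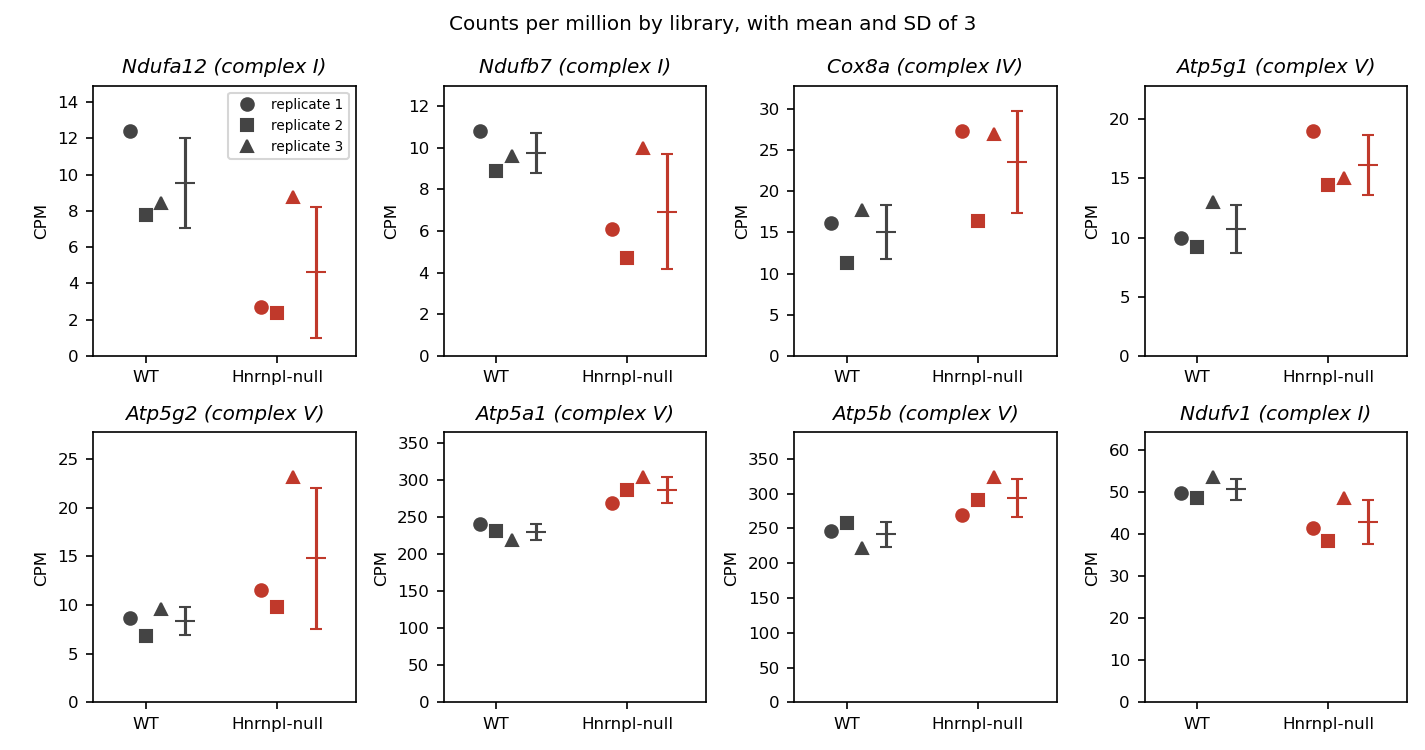
Levels in CPM (linear axis from 0) of 8 subunit genes in each library, one marker shape per replicate, with the mean and SD of the 3 libraries of a group at its right. Hnrnpl-null replicate 3 (triangle) sits among the WT values for Ndufa12 and Ndufb7 and far above its group for Atp5g2, and the groups are separate for Atp5g1, Atp5g2, Atp5a1 and Atp5b.

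Complex II, the succinate dehydrogenase shared with the citric acid cycle, is wholly nuclear and had the narrowest range of levels. Its 4 genes ran from 23.7 RPKM for Sdhb, the iron-sulfur subunit, to 33.4 RPKM for the membrane anchor Sdhc, a range of 1.41-fold. Ranges of the other complexes were 9.93-fold to 99.5-fold, but over 8 to 34 tested genes each, and a range can only widen as genes are added. Sdha, the flavoprotein, was at 83.5, 92.9 and 72.6 CPM in WT and 88.4, 89.8 and 116 CPM in Hnrnpl-null, and its groups overlapped (log2 fold change 0.23, edgeR adjusted p = 0.40). Sdhd, the other anchor, was at 27.7, 26.9 and 26.2 CPM in WT and 31.4, 27.8 and 43.7 CPM in Hnrnpl-null, with separate groups, a log2 fold change of 0.32 and an edgeR adjusted p of 0.32. Sdhb and Sdhc had ratios of 1.02 (95% interval 0.838 to 1.25) and 0.995 (0.820 to 1.21). The median of the 4 was 0.13 and all 4 intervals lay within 2-fold. Summed levels were 175, 186 and 164 CPM in WT and 186, 187 and 218 CPM in Hnrnpl-null, so the groups met at 186 CPM.

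Complex III, the cytochrome bc1 complex, had 8 tested genes with a median log2 fold change of 0.16. Its sums were 192, 177 and 198 CPM in WT and 236, 199 and 217 CPM in Hnrnpl-null, which did not overlap, with 199 CPM in Hnrnpl-null replicate 2 beside 198 CPM in WT replicate 3. Uqcrc1, a core protein, was at 57.2, 59.6 and 55.5 CPM in WT and 73.6, 66.9 and 58.1 CPM in Hnrnpl-null, with overlapping groups (log2 fold change 0.21, edgeR adjusted p = 0.37). Uqcrc2, the other core protein, was at 48.3, 50 and 59.1 CPM in WT and 62.2, 61.6 and 59.4 CPM in Hnrnpl-null, narrowly separate (0.22, edgeR adjusted p = 0.35), and its exons overlap those of Pdzd9. Uqcrh, the acidic hinge protein, had the highest level per length at 48.3 RPKM, with a log2 fold change of 0.24 and an edgeR adjusted p of 0.62. Uqcrfs1, the Rieske iron-sulfur protein, had a ratio of 1.17 (95% interval 0.935 to 1.46), and Uqcrb, a subunit near the quinone site, was the lowest at 4.86 RPKM.

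Complex IV, cytochrome c oxidase, had 16 tested genes with a median of 0.15, and the widest range of levels. Cox4i1, the common isoform of subunit 4, was the highest at 101 RPKM, Cox6b1 next at 67.4 RPKM, and Cox4i2, the isoform known from lung and from low oxygen, the lowest at 1.02 RPKM. Sums were 300, 256 and 292 CPM in WT and 297, 278 and 390 CPM in Hnrnpl-null, with only replicate 3 above the WT range. Without that library the complex's median was 0.00.

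Cox8a, the common isoform of subunit 8 (chromosome 19, 7215158 to 7217616, minus strand of mm10), had the smallest p of the complex. It was at 16.1, 11.3 and 17.7 CPM in WT and 27.3, 16.4 and 26.9 CPM in Hnrnpl-null, so Hnrnpl-null replicate 2 lay within the WT range. The log2 fold change was 0.64 ± 0.23 (SE), with an edgeR adjusted p of 0.14, which was 0.029 with no filter on low counts. Cox4i1 was at 82.2, 72.0 and 69.6 CPM in WT and 68.5, 79.0 and 93.7 CPM in Hnrnpl-null, with overlapping groups, a log2 fold change of 0.10 and an edgeR adjusted p of 0.75. Ndufa4, the subunit moved here from complex I, was at 8.96, 6.96 and 10.3 CPM in WT and 12.3, 7.01 and 18.7 CPM in Hnrnpl-null (0.45, edgeR adjusted p = 0.48), also with overlap.

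Isoforms known for a restricted tissue were low beside their common partners, in both groups. Cox6b2, known from testis, was at 7.07 RPKM against 67.4 RPKM for Cox6b1, and Cox7a1, known from heart and muscle, at 4.38 RPKM against 23.7 RPKM for Cox7a2. Ndufa4l2, known to respond to low oxygen, was at 2.15 RPKM against 21.6 RPKM for Ndufa4. Cox6b2 was at 3.69, 3.81 and 3.17 CPM in WT and 4.47, 4.8 and 6.25 CPM in Hnrnpl-null, with separate groups, a log2 fold change of 0.49 and an edgeR adjusted p of 0.45. Ndufa4l2, whose exons overlap those of Shmt2, also had separate groups, at 1.58, 1.74 and 0.965 CPM and 1.81, 1.94 and 4.37 CPM (0.78, edgeR adjusted p = 0.50). Cox4i2 and Cox7a1 had log2 fold changes of -0.44 and 0.47 with standard errors of 0.89 and 0.75, so no direction can be read for them. Of the untested isoforms, Cox8b was at most at 0.551 CPM in any library, Cox8c likewise, Cox7b2 at 0.263 and Cox6a2 at 0.0829.

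Complex V, the ATP synthase, had the most genes with separate groups. Summed levels were 818, 802 and 781 CPM in WT and 901, 902 and 1040 CPM in Hnrnpl-null, or 800 ± 18.8 and 948 ± 79.6 CPM (SD, n = 3 each), a ratio of 1.18 with groups that did not overlap. Of the 17 genes, 5 (29.4%) had separate groups and an unadjusted edgeR p below 0.05, all with Hnrnpl-null higher, and none passed adjustment. Of all tested genes, 9.97% had such a p and 12.4% had separate groups in that direction. In complex II the separate share was near that of complex V, with 1 of 4 genes (25%). The median log2 fold change was 0.15. Scaling to the 25 general genes, of which 6 were themselves called higher, turned that median to -0.15 while it moved the median of all tested genes to -0.31.

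The catalytic head held the most abundant transcripts of the whole set. Atp5b, the beta subunit that carries the catalytic sites, was at 143 RPKM and Atp5a1, the alpha subunit, at 106 RPKM, with Cox4i1 of complex IV next at 101 RPKM. Atp5a1 was at 241, 232 and 219 CPM in WT and 270, 287 and 304 CPM in Hnrnpl-null, without overlap. Its ratio was 1.24, with a 95% interval of 1.05 to 1.47 and an edgeR adjusted p of 0.15, against 0.020 in both DESeq2 and limma-voom, and its exons overlap those of Haus1. With the general-gene scaling its log2 fold change was 0.00. Atp5b was at 246, 257 and 222 CPM in WT and 269, 290 and 323 CPM in Hnrnpl-null, also without overlap, with a ratio of 1.22 (95% interval 1.02 to 1.46) and an edgeR adjusted p of 0.23. It stood at -0.04 on the log2 scale with that scaling. The central stalk genes Atp5c1, Atp5d and Atp5e had ratios of 1.11, 1.02 and 0.840, each with overlapping groups.

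The membrane ring of subunit c is made from 3 genes that encode the same mature protein behind different import sequences. Atp5g1 (chromosome 11, 96072793 to 96075694, minus strand of mm10) was at 10, 9.2 and 13 CPM in WT and 19, 14.4 and 15 CPM in Hnrnpl-null, with separate groups. Its log2 fold change was 0.60 ± 0.20 (SE), a ratio of 1.52 with a 95% interval of 1.12 to 2.05 and an edgeR adjusted p of 0.12. Atp5g2 was at 8.69, 6.80 and 9.58 CPM in WT and 11.5, 9.75 and 23.1 CPM in Hnrnpl-null, separate by 9.58 against 9.75 CPM. Its log2 fold change was 0.73 (edgeR adjusted p = 0.20) and 0.36 without Hnrnpl-null replicate 3, which held the high value. Atp5g3, the most abundant of the 3 at 94.6 RPKM against 15.5 and 17.9 RPKM, was at 60.1, 71.7 and 63.1 CPM in WT and 71.2, 69.9 and 75 CPM in Hnrnpl-null, with overlap and a ratio of 1.10 (95% interval 0.933 to 1.31). Of the stalk that holds the head still, Atp5h was at 22.9, 23.1 and 25 CPM in WT and 33.7, 27.6 and 29.4 CPM in Hnrnpl-null, separate, with a ratio of 1.28 and an edgeR adjusted p of 0.19. Atp5pb and Atp5o, of the same stalk, had ratios of 1.03 and 1.08 with overlap.

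**Figure D4:**
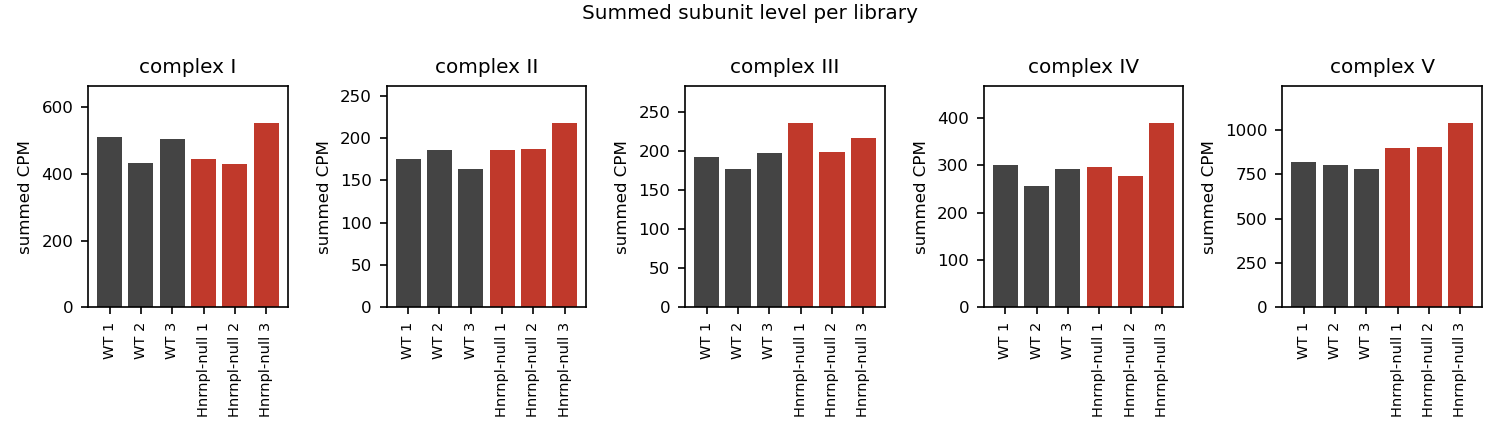
Summed CPM of all members of each complex, tested or not, in each library (bars, each panel from 0 on its own linear scale; dark WT, red Hnrnpl-null). Complexes I and IV overlap between the groups, complexes III and V do not, and the groups of complex II meet at 186 CPM. Hnrnpl-null replicate 3 is the highest bar for complexes I, II, IV and V.

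Respiratory promoters are known for sites of NRF1, of ETS factors such as GABPA, and of YY1. RefSeq windows of 300 bases around the gene start (250 before and 50 after, GRCm38.p6) were found for 65 of the 79 tested members and 11670 tested genes. The NRF1 core, GCGCA and GCGC with any 1 base between them, on either strand, was present in 16 members (24.6%) and in 10.5% of the tested genes' windows. The ETS motif CCGGAAG was in 17 members (26.2%, against 18.3%) and the YY1 motif AAGATGGC in 10 (15.4%, against 4.78%), of which 7 were complex I and 3 complex V genes. The CCAAT-box motif CCAATCA was in 4 (6.15%, against 11.6%), and 37 members had at least 1 of the first 3. All motifs were searched on both strands, and those of ETS and YY1 can share the letters AAG. A match describes these letters and is not a site. The median log2 fold change of members with an NRF1 core was 0.15 and of those without 0.10.

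The stretches below are shown because they hold the NRF1 core (in capitals), beginning 30 to 141 bases before the start. They come from genes of complexes I, II, IV and V, including Sdhd, Atp5g2 and Atp5h, whose groups were separate. All 6 genes had fitted values above 0. Upstream cores not shown include those of Ndufa11, Ndufb4, Ndufa5 and Atp5k, with log2 fold changes of -0.27, -0.20, 0.01 and 0.28. Each stretch shown is 50 bases long and lies upstream of the RefSeq start. It is written 5′ to 3′ on the gene's strand, which is the minus strand for all 6. The core reads in the gene's direction for Sdha, Sdhd, Atp5h and Cox6a1, on the opposite strand for Ndufa8, and on both for Atp5g2.
Ndufa8 (chr2:36049339-36049388): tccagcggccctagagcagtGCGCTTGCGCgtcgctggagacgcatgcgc
Sdha (chr13:74350266-74350315): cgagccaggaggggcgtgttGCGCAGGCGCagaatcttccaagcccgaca
Sdhd (chr9:50603899-50603948): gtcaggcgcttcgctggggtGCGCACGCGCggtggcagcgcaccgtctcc
Cox6a1 (chr5:115349046-115349095): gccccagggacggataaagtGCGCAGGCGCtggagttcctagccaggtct
Atp5g2 (chr15:102671060-102671109): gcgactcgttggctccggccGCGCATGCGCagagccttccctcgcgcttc
Atp5h (chr11:115420031-115420080): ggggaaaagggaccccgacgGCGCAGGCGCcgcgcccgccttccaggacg

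Genes of these families have many processed copies in the genome, whose reads the counting could split. Of the tested members, 48 had no annotated pseudogene in GENCODE that matched their coding sequence at 90% identity or more over at least 80% of its length, 24 had 1 or 2 and 7 had 3 or more. Those 7 were Atp5l with 13, Atp5h and Atp5md with 5 each, and Atp5g1, Cox7b, Cox7c and Uqcrb with 4 each. Median levels were 17.2, 15.8 and 27.2 RPKM in the 3 classes and median log2 fold changes 0.09, 0.10 and 0.15. How reads with several matches were treated is not given in the sources used here, so the values of these genes, and of Ndufa12 and Ndufb7 with 1 copy each, are uncertain in that respect. Exons of 11 tested members overlap those of another gene.

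Of 50 tested assembly factors none was called by edgeR, DESeq2 or limma-voom, 2 had an unadjusted edgeR p below 0.05 and the median log2 fold change was -0.07. These were Acad9, a complex I assembly factor, at 18.2 ± 1.95 and 24.6 ± 2.29 CPM (SD, n = 3 each; edgeR adjusted p = 0.17), and Tmem186, of the same assembly complex, at 8.24 ± 1.21 and 5.31 ± 0.932 CPM (0.22). Of 78 mitochondrial ribosomal protein genes none was called by these 3 tools, 2 had an unadjusted p below 0.05, and the median was -0.03. The 24 genes of the citric acid cycle and pyruvate dehydrogenase had a median of 0.00 with no edgeR call and 3 at an unadjusted p below 0.05, and DESeq2 and limma-voom each called Idh2, a mitochondrial isocitrate dehydrogenase, higher.

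Regulators of respiratory genes and mitochondrial DNA gave no call by the 3 tools among 27 tested, with 4 at an unadjusted p below 0.05 and a median of -0.13. Tfam, which packages and transcribes mitochondrial DNA, was at 18.2, 17.2 and 21.9 CPM in WT and 15.4, 13.6 and 11.2 CPM in Hnrnpl-null, separate groups with a log2 fold change of -0.48 and an edgeR adjusted p of 0.16. Scaling to the general genes called it lower, together with Polg and Pprc1. Nrf1, the factor of the core shown above, had a ratio of 0.893 (95% interval 0.699 to 1.14), and Gabpa, whose exons overlap those of Atp5j, one of 1.02 (0.799 to 1.29). Gabpb1, its partner, was at 13.1 ± 1.26 and 18.0 ± 1.44 CPM (SD, n = 3 each; edgeR adjusted p = 0.16).

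Among 21 tested electron carriers, coenzyme Q synthesis genes and subunits that the symbol rule misses, 1 fell and the median was -0.18. Of all tested genes 1.79% were called lower. Coq8a, an atypical kinase needed for coenzyme Q synthesis, was at 41.9, 40.9 and 45.1 CPM in WT and 20.9, 22.5 and 19.4 CPM in Hnrnpl-null, far from overlapping. Its ratio was 0.496, with a 95% interval of 0.408 to 0.602 and an edgeR adjusted p of 0.00049, and all 21 alternative fits called it, with adjusted p from 5.9e-09 to 0.012. Its exons overlap those of Cdc42bpa. Its relative Coq8b was at 11.6, 11.1 and 10.8 CPM and 8.94, 9.44 and 11.2 CPM (log2 fold change -0.21, edgeR adjusted p = 0.64). Cyc1, cytochrome c1 of complex III, had a ratio of 1.01 (0.786 to 1.31), and Cycs, cytochrome c, was at 5 ± 1.05 and 7.65 ± 2.15 CPM (SD, n = 3 each; edgeR adjusted p = 0.24).

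Of 18 mitochondrial carriers and outer-membrane proteins 3 rose, beside 2.67% of all tested genes called higher, with a list median of 0.17. Slc25a5, an ADP/ATP carrier that exchanges the product of complex V, was at 44.3, 42.0 and 48.0 CPM in WT and 78.3, 78.4 and 80 CPM in Hnrnpl-null. Its log2 fold change was 0.82 ± 0.11 (SE), with an edgeR adjusted p of 0.00071, and its relative Slc25a4 had a ratio of 1.03 (95% interval 0.818 to 1.31). Vdac1, a pore of the outer membrane, rose by 0.47 on the log2 scale (edgeR adjusted p = 0.032), as did Slc25a3, the phosphate carrier (0.47, adjusted p = 0.045). With 1 library left out the list kept 1 or 2 calls, Slc25a5 in every such fit, while Slc25a3 was lost in each and Vdac1 in 4, those lacking any WT library or the second Hnrnpl-null one. With library totals alone as the scaling none of the 3 was called, and with scaling to the general genes only Slc25a5 was.

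Glycolysis, the other route to ATP, had a median of 0.39 over 21 genes, and 4 rose, beside 2.67% of all tested genes called higher. The 25 general genes were much alike, with a median of 0.32 and 6 called higher. Gapdh was at 223, 214 and 200 CPM in WT and 377, 388 and 381 CPM in Hnrnpl-null, with a log2 fold change of 0.85 ± 0.11 (SE) and an edgeR adjusted p of 0.00070. Eno1, Pgk1 and Ldha, an enolase, a phosphoglycerate kinase and a lactate dehydrogenase, rose by log2 fold changes of 0.65, 0.67 and 0.52. Of the isoforms, Ldhb was at -0.11 and Pkm at 0.04, with edgeR adjusted p of 0.70 and 0.88. The number called was 2 when WT replicate 2 or 3 was left out, 7 without Hnrnpl-null replicate 3, 9 by DESeq2 and 10 by limma-voom, and 0 with library totals alone. Scaling to the general genes left Gapdh called higher and called Ldhb lower. It moved the glycolysis median to 0.07, and that of all tested genes to -0.31. Pgk1 is itself among those 25 general genes, so its value under that scaling is not independent of it. No test compared the glycolytic with the respiratory list, and the leukocyte, stromal and germ cell sums given above moved with the same groups, whose part in these values was not tested.

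**Figure D5:**
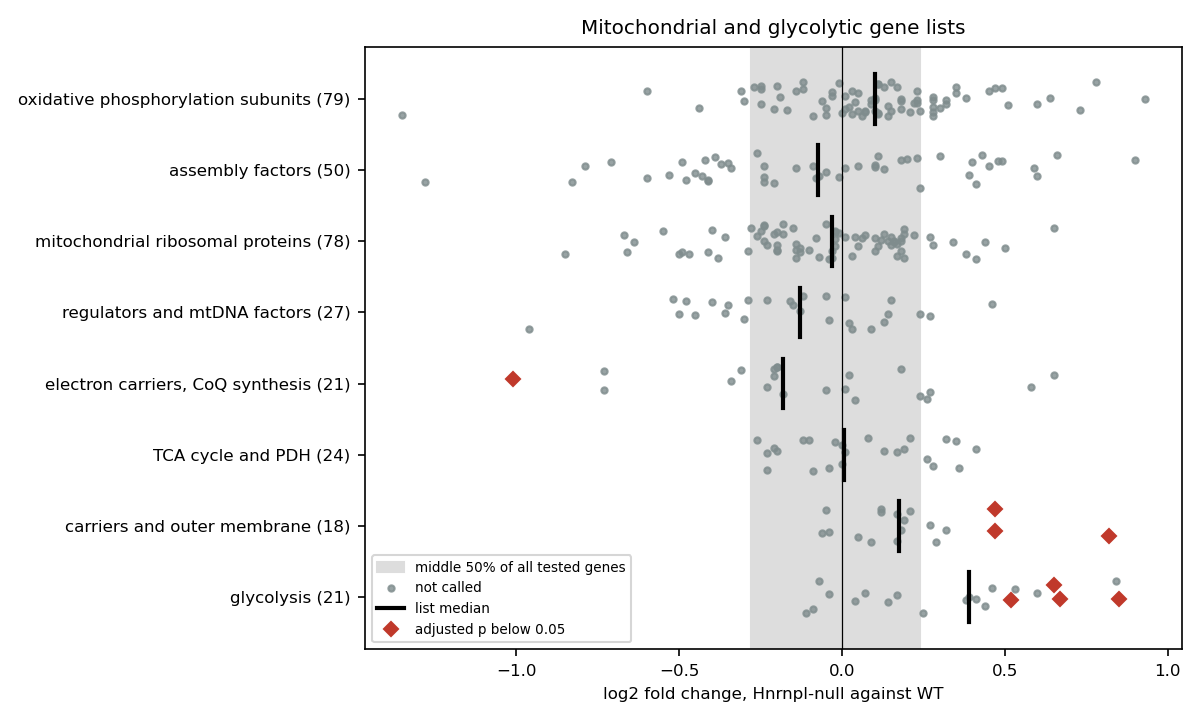
Fitted log2 fold change (Hnrnpl-null against WT) of each tested gene (points, jittered vertically) in the subunit set and 7 related lists, with the number tested in brackets; black bars are list medians, red diamonds genes with an edgeR adjusted p below 0.05 and the grey band the interquartile range of all tested genes. The subunits have a median of 0.10 and no red diamond, glycolysis a median of 0.39 and 4 diamonds, and Coq8a is the single diamond below 0.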

How the data were processed

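The authors deposited raw read counts per gene for the 6 libraries, with exon coordinates and exonic length, in the column layout of featureCounts. The submitters' processing notes list the build mm10, featureCounts 2.0.6, HISAT2 2.2.1 and STAR 2.7.11a without their roles. Which annotation was used, whether strand was counted, and what became of reads with several matches are unknown here, so overlapping genes cannot be told apart.

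The counts of the whole table were fitted in edgeR 4.0.16 (R 4.3.3), after filterByExpr and TMM scaling, with genotype as the only term, by the two-sided quasi-likelihood F test with Benjamini-Hochberg adjustment over 14849 genes. Calls are at an adjusted p below 0.05. CPM use TMM-scaled library sizes, RPKM divide CPM by exonic kilobases, and 95% intervals are from the fit. Alternatives were DESeq2 1.42.0, voom in limma 3.58.1, other scalings and filters, removal of a length trend, halved counts and fewer libraries. The edgeR script was tested on simulated data. Promoters are RefSeq's (GRCm38.p6). Pseudogene copies were matched with blastn 2.17.0.

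Single members were named by a rule: called members, the 2 with the highest RPKM and the 2 with the smallest p in each complex, isoforms of restricted tissues with their partners, members under the filter, and up to 6 called genes of each other list. Ndufc1, Ndufs8, Ndufb3, Sdhb, Uqcrb, Uqcrfs1, Atp5c1, Atp5d, Atp5e, Atp5h, Atp5o, Atp5pb, the genes with sequences or pseudogene copies and the uncalled genes of other lists were chosen after their values were seen. Members, lists and rule were chosen with earlier results of these data known. Values of 1 complex I member are not reported here on its own. Postnatal ovaries, which the series also names, are not analysed here.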

Additional observations from a re-analysis of the deposited data

How the results depend on the processing

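No subunit gene was called in 14 of 21 alternative fits. Members called higher numbered 1 with DESeq2, 2 with limma-voom and 1 with no filter on low counts. Members called lower numbered 1 with DESeq2, 2 with limma-voom, 2 with scaling to general genes, 1 with no filter, 1 without both libraries rich in Rn45s, 1 with halved counts, 1 at an adjusted p below 0.10, and 0 to 1 with a library left out, the 1 being without Hnrnpl-null replicate 3. Over all genes, calls higher and lower were 397 and 266, against 643 and 443 with DESeq2, 775 and 498 with limma-voom, 123 and 132 with library totals alone, 141 and 1340 with scaling to general genes, 633 and 471 with no filter, 147 and 89 at an adjusted p below 0.01, 631 and 461 at 0.10, and 145 to 532 and 104 to 321 with a library left out. Scaling to general genes moved the members' median log2 fold change to -0.21 and those of complexes I, II, III and V to -0.34, -0.18, -0.15 and -0.15, with the median of all genes at -0.31. Library totals alone moved complex II to 0.04. With a library left out, the members' median ran from 0.02 to 0.21.

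Of 777 pairs of a named gene and an alternative, 692 kept direction and call, 14 gained a call, 37 lost one and 34 turned direction. Scaling to general genes turned Atp5a1 (0.00), Atp5b (-0.04), Atp5g3 (-0.17), Cox4i1 (-0.22), Cox6a1 (-0.17), Cox6b1 (-0.14), Cox7a2 (-0.22), Cox7b (-0.03), Sdha (-0.09), Uqcrc1 (-0.09), Uqcrc2 (-0.09), Uqcrh (-0.07) and Hnrnpl (-0.14). Limma-voom turned Cox6b1 (-0.03), Cox7a2 (-0.18) and Sdhc (0.04), TMM without Rn45s and halved counts Sdhc (0.00 each), and the length trend Cox6a1 (-0.01) and Cox6b1 (-0.02). Without both libraries rich in Rn45s, Cox6b1 (-0.03), Cox7a1 (-0.33), Cox7a2 (-0.28) and Sdhc (0.05) turned. With a library left out, log2 fold changes ran from -0.01 to 0.20 for Cox4i1, -1.44 to 0.31 for Cox4i2, -0.14 to 0.41 for Cox6a1, -0.15 to 0.44 for Cox6b1, -0.14 to 1.28 for Cox7a1, -0.27 to 0.36 for Cox7a2 and -0.08 to 0.08 for Sdhc. All were uncalled, and the cause was not tested.

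Replicate numbers gave no sign of a pairing: correlations of same-numbered deviations were -0.12, 0.09 and -0.09. Those of differently numbered libraries ran from -0.11 to 0.15, the highest being for WT replicate 1 and Hnrnpl-null replicate 3, both rich in Rn45s. A weak pairing is not excluded by such values. With the replicate block edgeR called 0 members, with 8 at an unadjusted p below 0.05, 265 genes higher and 179 lower. Under the block Vdac1 (adjusted p = 0.069) and Slc25a3 (0.079) were no longer called, and the stromal markers called went from 4 to 2. At this depth the interval of the ratio reached beyond 2-fold for 22 members.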
